A study of Mus musculus with 12 samples.

Results

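The heat shock chaperone genes, 10 in all, were followed in 12 mouse lungs, taken by symbol from the gene count table as Hsph1, Hspa1a, Hspa1b, Hspa8, Dnaja1, Dnajb1, Hsp90aa1, Hspb1, Hspd1 and Hspe1. They were 10 of the 55487 genes in the table, and 10 of 10 passed the filter on low counts that left 45828 genes for testing. The set was chosen by the measured levels of Hsph1 and Dnaja1, which varied between room air lungs, so their values in room air, and any contrast that uses room air lungs, are given for these 2 genes as a description with no test. The other 8 genes were taken as further members of the same chaperone machinery.

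Each library was the whole lung of 1 C57BL/6J mouse at postnatal day (PND) 21, and all 12 mice were miR-30a-/-, made by CRISPR deletion of the miR-30a gene, with no wild-type lung analysed here. Pups from several litters were pooled and redistributed, and received 95% oxygen (hyperoxia) on PND 1-5 followed by recovery in room air, or room air throughout. The 4 groups of 3 lungs were room air males (numbers 1, 4 and 5), room air females (2, 5 and 6), hyperoxia males (1, 2 and 3) and hyperoxia females (2, 4 and 5). Whole lung RNA mixes all cell types, so fewer cells of a type and less RNA per cell cannot be told apart.

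Chaperones bind unfolded or partly folded proteins and keep them from aggregating. The Hsp70 proteins Hspa1a, Hspa1b and Hspa8 cycle between ATP and ADP forms, Hsp40 proteins such as Dnaja1 and Dnajb1 deliver clients and stimulate the ATP hydrolysis, and Hsph1 (Hsp110) exchanges the nucleotide. Hsp90aa1 finishes the folding of kinases and steroid receptors, Hspb1 is a small ATP-independent holdase, and Hspd1 with its lid Hspe1 forms the mitochondrial folding chamber. Heat shock factor 1 (Hsf1) switches many of these genes on together when unfolded protein accumulates, through repeated GAA units in their promoters, and Hspa8 also has a high basal level in most tissues.

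The libraries held 8763033 to 16741694 counts, and the 10 members held between 34 (Hspa1b) and 4146 (Hspa8) counts per lung. The sex labels matched the libraries (Xist 8834 to 27296 counts in females and 148 to 210 in males; Ddx3y 0 in females and 270 to 715 in males), the Mir30a row was at 0 in all 12, and all 10 lung marker genes were abundant, with Sftpc at 1970 to 5233 CPM. Olfactory and vomeronasal receptor genes, which lung is not expected to use, took 0.453 to 1.04% of the counts, with the lowest shares in room air females 5 (0.453%) and 2 (0.572%) and hyperoxia male 1 (0.569%), and the highest in hyperoxia male 2 (1.04%). A far larger satellite share (Gm10800, Gm21738 and Gm10801 summed) took 7.12 to 28.5% of the counts. It was lowest in room air female 5 (7.12%), hyperoxia male 1 (8.48%) and room air female 2 (11.2%), and highest in hyperoxia male 2 (28.5%). Room air female 6 was at 19.7%. The part of the satellite share in the members' levels was not tested. Room air male 1 stood apart in its skeletal muscle genes, whose 15 summed to 6490 CPM against 419 to 670 in the other 11 lungs.

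The members lie on 7 chromosomes (GRCm38, GENCODE M21, to which 55227 of the 55487 gene IDs matched). Hsph1 spans chr5:149614287-149636376 on the minus strand in 19 exon blocks. The 2 inducible Hsp70 genes are neighbours of 1 exon block each, Hspa1b at chr17:34956436-34959238 and Hspa1a at chr17:34969190-34972156, both on the minus strand. Hspa8 lies at chr9:40800984-40810087 (plus), Dnaja1 at chr4:40722150-40737149 (plus), Dnajb1 at chr8:83608193-83612653 (plus), Hsp90aa1 at chr12:110690605-110702728 (minus) and Hspb1 at chr5:135887919-135889563 (plus). Hspd1 (chr1:55077835-55088243, minus) and Hspe1 (chr1:55088132-55091307, plus) start head to head and share 112 exon bases on opposite strands. The 3′ end of Dnaja1 overlaps Smu1 on the opposite strand by 608 bases.

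The promoter windows of the members were read from RefSeq (GRCm38.p6; 250 bases before to 50 bases after the start site, written 5′ to 3′ on the gene's strand) and searched for inverted repeats of the GAA unit, GAANNTTC or TTCNNGAA, which are palindromic and so the same on both strands. Windows were found for 8 members, and where RefSeq gave several the one nearest the GENCODE gene start was taken. The windows of 6 members are shown with the matches in capitals, chosen for the 2 genes whose levels chose the set (Hsph1 and Dnaja1), for 1 of the near-identical inducible Hsp70 pair (Hspa1a), for Dnajb1 as a window without a match, for Hspb1, whose levels differed from the pattern of the rest, and for Hspe1, which like Hsph1 held a longer match. Hsph1 is at chr5:149636287-149636586 (minus), Dnaja1 at chr4:40722218-40722517 (plus), Hspa1a at chr17:34972107-34972406 (minus), Dnajb1 at chr8:83607925-83608224 (plus), Hspb1 at chr5:135887669-135887968 (plus) and Hspe1 at chr1:55087898-55088197 (plus).
Hsph1: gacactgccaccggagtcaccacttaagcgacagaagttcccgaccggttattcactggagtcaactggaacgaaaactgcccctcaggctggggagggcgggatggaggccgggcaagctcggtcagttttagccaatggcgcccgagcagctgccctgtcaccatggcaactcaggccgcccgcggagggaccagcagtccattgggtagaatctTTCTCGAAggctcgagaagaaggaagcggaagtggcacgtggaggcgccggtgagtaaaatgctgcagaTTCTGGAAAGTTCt
Dnaja1: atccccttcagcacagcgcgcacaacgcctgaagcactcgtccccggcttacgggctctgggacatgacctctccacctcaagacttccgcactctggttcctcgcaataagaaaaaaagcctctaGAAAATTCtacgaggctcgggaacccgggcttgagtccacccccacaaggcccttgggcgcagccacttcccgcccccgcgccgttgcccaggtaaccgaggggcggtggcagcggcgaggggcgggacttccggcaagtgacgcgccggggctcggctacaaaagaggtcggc
Hspa1a: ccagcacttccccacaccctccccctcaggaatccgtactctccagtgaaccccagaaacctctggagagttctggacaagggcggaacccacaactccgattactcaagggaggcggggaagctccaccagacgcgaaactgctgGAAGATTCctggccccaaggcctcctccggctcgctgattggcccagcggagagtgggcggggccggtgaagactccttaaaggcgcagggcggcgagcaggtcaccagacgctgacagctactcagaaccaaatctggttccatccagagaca
Dnajb1: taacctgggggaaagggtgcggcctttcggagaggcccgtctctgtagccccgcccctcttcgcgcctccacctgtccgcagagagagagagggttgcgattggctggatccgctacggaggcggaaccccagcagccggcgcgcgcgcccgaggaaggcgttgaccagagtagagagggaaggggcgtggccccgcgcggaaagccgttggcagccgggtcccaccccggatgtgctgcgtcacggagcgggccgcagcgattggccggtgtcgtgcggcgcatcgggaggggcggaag
Hspb1: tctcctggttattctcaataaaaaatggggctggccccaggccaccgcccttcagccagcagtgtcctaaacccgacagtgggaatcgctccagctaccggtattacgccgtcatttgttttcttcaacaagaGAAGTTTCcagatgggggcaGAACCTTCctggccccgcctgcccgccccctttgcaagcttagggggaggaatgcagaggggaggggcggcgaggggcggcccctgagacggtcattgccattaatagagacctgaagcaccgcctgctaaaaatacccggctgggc
Hspe1: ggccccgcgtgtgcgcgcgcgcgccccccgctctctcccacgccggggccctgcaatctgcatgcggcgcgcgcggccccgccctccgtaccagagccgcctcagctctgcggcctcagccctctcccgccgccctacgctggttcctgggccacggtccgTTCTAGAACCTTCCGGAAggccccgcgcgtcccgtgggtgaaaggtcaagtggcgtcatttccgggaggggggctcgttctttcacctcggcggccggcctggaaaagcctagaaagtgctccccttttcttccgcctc

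Of the 8 windows, 6 held at least 1 of the 8-base motifs, which occur in 15.1% of the 32851 mouse windows in the same table. The windows of Hsph1 and Hspe1 also held the 13-base motif of 3 alternating units (overlapping the 8-base matches), present in 0.603% of all windows, and in Hsph1 it lay after the start site. Hspb1 held 2 matches, 117 and 97 bases before its start. The Dnajb1 and Hspd1 windows held none, and the matches are letters in a window, not binding measurements. The Hspa1b window differed from that of Hspa1a at 4 of 300 bases (C44T, T47C, T249G and C276T, counted from the 5′ end of the window, Hspa1a first), all outside the capitals.

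Hsph1, the Hsp110 nucleotide exchange factor, was the member whose room air groups were most sharply separated. It was measured at 24.7, 27.7 and 25.7 CPM (counts scaled by the upper quartile to a common library size) in room air males 1, 4 and 5, and at 44.1, 44.0 and 47.2 CPM in room air females 2, 5 and 6. In hyperoxia it was at 24.5, 31.0 and 32.2 CPM in males 1, 2 and 3 and at 31.5, 33.9 and 31.7 CPM in females 2, 4 and 5. The 3 room air females thus lay above all other lungs, and hyperoxia females lay between them and the room air males. Its SD over the 6 room air lungs on the log2 scale, 0.438, was at percentile 97.0 of the 14605 genes with a mean of 10 CPM or more, while its SD within the sexes, 0.0734, was at percentile 3.65, so nearly all of the spread that brought it to attention was between the sexes.

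Dnaja1, an Hsp40 partner of Hsp70, was at 47.8, 64.6 and 54.5 CPM in room air males 1, 4 and 5 and at 115, 120 and 96.2 CPM in room air females 2, 5 and 6. In hyperoxia its levels were 74.1, 41.8 and 63.4 CPM in males 1, 2 and 3 and 61.8, 62.7 and 50.4 CPM in females 2, 4 and 5. The room air females were again above every other lung, with hyperoxia females inside the range of both male groups.

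Hspa8, the constitutive Hsp70, was the most abundant member. It was at 93.9, 136 and 124 CPM in room air males, 234, 264 and 189 CPM in room air females, 148, 65.5 and 121 CPM in hyperoxia males and 132, 150.2 and 103 CPM in hyperoxia females, each in the number order given above. Here too the room air females did not overlap the other 9 lungs, and the lowest value belonged to hyperoxia male 2, the shallowest library.

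The stress-inducible Hsp70 genes were far lower. Hspa1a was at 4.90, 4.09 and 3.85 CPM in room air males, 6.77, 6.74 and 10.2 CPM in room air females, 3.03, 4.35 and 5.02 CPM in hyperoxia males and 3.59, 3.94 and 3.87 CPM in hyperoxia females. Hspa1b was at 4.65, 4.35 and 4.66 CPM in room air males, 8.74, 6.49 and 11.9 CPM in room air females, 3.99, 3.7 and 4.28 CPM in hyperoxia males and 2.97, 6.21 and 4.30 CPM in hyperoxia females. For both genes the room air females were highest, female 6 above all of the other lungs. Hyperoxia female 4 came closest to that group, with 6.21 CPM of Hspa1b against 6.49 CPM in room air female 5.

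Dnajb1, the heat-inducible Hsp40, was at 23.6, 33.7 and 32.2 CPM in room air males, 49.4, 53.1 and 46.4 CPM in room air females, 28.1, 19.3 and 25.8 CPM in hyperoxia males and 30.4, 30.6 and 29.8 CPM in hyperoxia females. Hsp90aa1, the inducible cytosolic Hsp90, was at 50.1, 61.0 and 48.4 CPM in room air males, 89.1, 111 and 75.6 CPM in room air females, 66.5, 37.7 and 42.8 CPM in hyperoxia males and 47.4, 57.8 and 42.0 CPM in hyperoxia females. Both genes had the 3 room air females at the top.

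The mitochondrial pair moved over a smaller range. Hspd1 was at 14.9 to 19 CPM in room air males, 20.7 to 24 CPM in room air females, 13.7 to 16.4 CPM in hyperoxia males and 15.3 to 18.8 CPM in hyperoxia females. Hspe1 was at 8.11 to 9.96 CPM in room air males, 11.5 to 13.6 CPM in room air females, 7.51 to 11.4 CPM in hyperoxia males and 7.70 to 9.88 CPM in hyperoxia females. The lowest room air female and hyperoxia male 1 could not be separated for Hspe1, with 11.46 and 11.45 CPM.

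Hspb1 was the exception. Its levels were 20.2, 13.3 and 14.5 CPM in room air males, 17.1, 21.0 and 14.5 CPM in room air females, 14, 10.8 and 11.2 CPM in hyperoxia males and 12.2, 11.1 and 12.5 CPM in hyperoxia females. The sexes overlapped in room air, and its second highest value was in room air male 1, the lung with the raised skeletal muscle genes, whose part in that value was not tested.

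**Figure D1:**
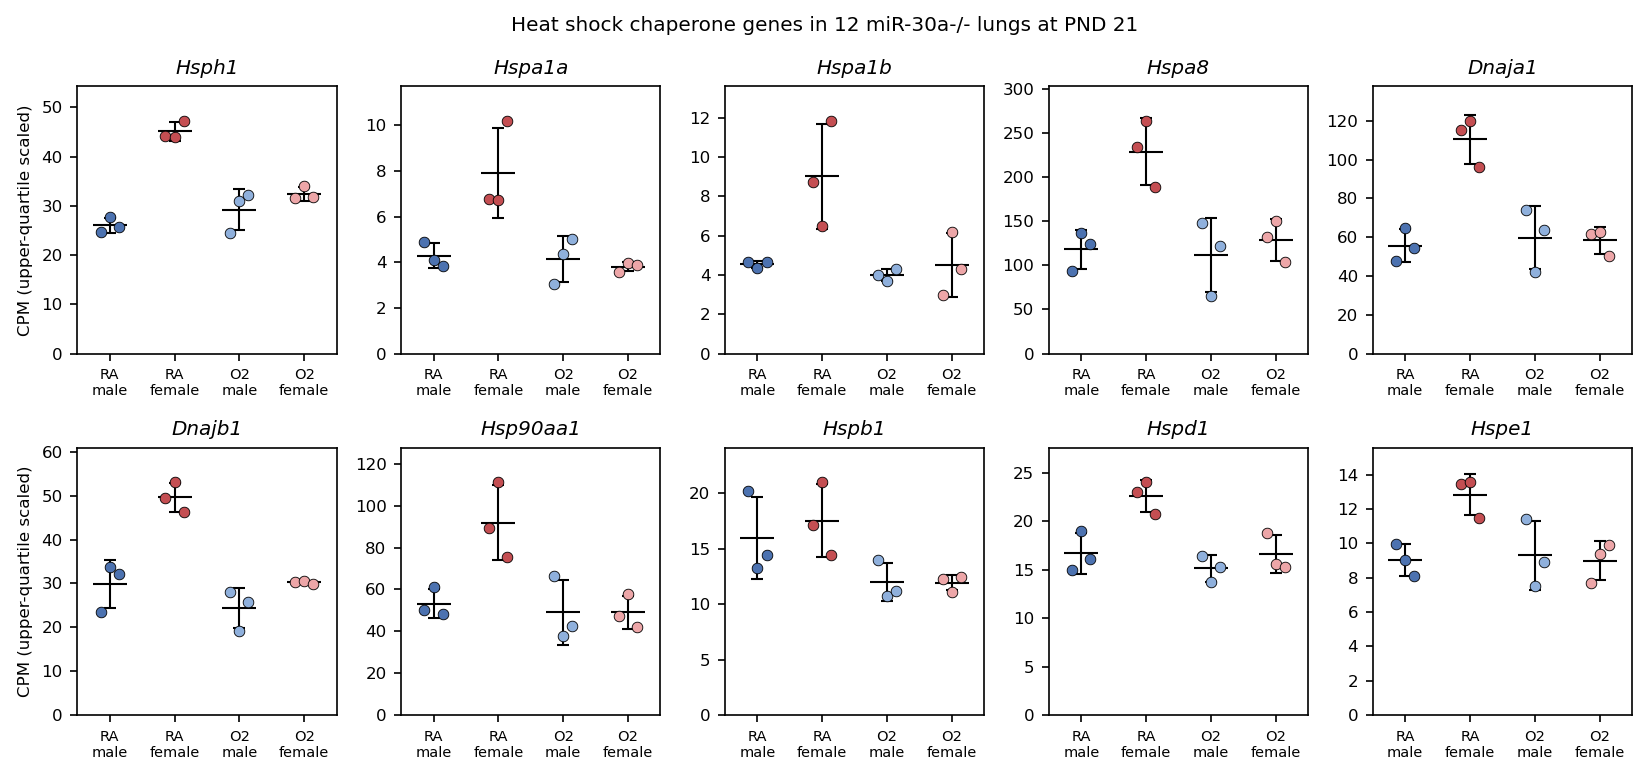
Level of each member (y axis, CPM scaled by the upper quartile, from 0) in room air (RA) and hyperoxia (O2) lungs by sex, with 1 point per lung in the order of animal number, the mean as a bar and the SD as whiskers (n = 3). The 3 room air female points stand above all other points in every panel except Hspb1, and only just in Hspe1.

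Counted over the members, the 3 room air females lay above all 9 other lungs for Hsph1 and Dnaja1, which their spread in room air chose, and for 7 of the 8 other genes, where this held for 0.888% of all tested genes (407 of 45828). Of the 6 other members of 10 CPM or more it held for 5, where it held for 2.18% of the 14605 genes at that level. The count was made after the values were seen and is a description. Hsph1 and Dnaja1 included, it was 9 of 10, and 8 of 10 with TMM scaling, with DESeq2 size factors and with total counts alone, and 8 or 9 without any 1 lung, with Hspb1, Hspe1 or Hspa1b as the members that dropped out. Room air female 6 had a receptor share of 0.819%, inside the range of the other groups, and the highest Hsph1, Hspa1a and Hspa1b of all lungs, while leaving it out raised the share of all genes with this order to 8.58%.

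**Figure D2:**
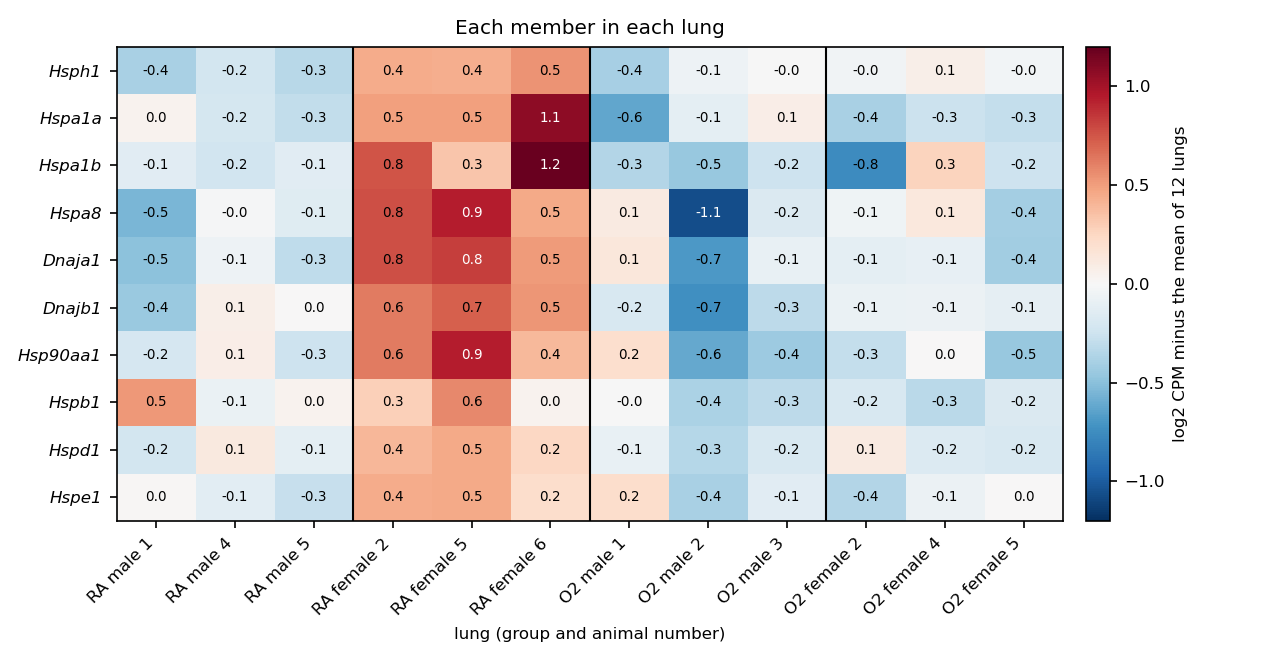
Each member (rows) in each lung (columns, group and animal number), as log2 CPM minus the gene's mean over 12 lungs, with the value printed in each cell and black lines between groups. The 3 room air female columns are at or above the mean for every member, and hyperoxia male 2 has the lowest Hspa8, Dnaja1, Dnajb1 and Hsp90aa1.

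The contrast of females with males in room air was added after the members' values were seen. In the edgeR quasi-likelihood fit the fitted log2 differences (females minus males) were positive for 8 of the 8 members other than Hsph1 and Dnaja1, with a median of 0.76 against -0.10 over all tested genes and 0.15 over genes of 10 CPM or more. Hsph1 was higher by 0.79 ± 0.15 (SE) and Dnaja1 by 0.99 ± 0.21, given with no test. Dnajb1 rose 1.66-fold in females (log2 0.73 ± 0.16, n = 3 lungs a group, edgeR adjusted p = 0.0318) and passed both thresholds, an adjusted p under 0.05 and a change over 1.5-fold. Hspa1b (0.98 ± 0.25, edgeR adjusted p = 0.0808), Hsp90aa1 (0.79 ± 0.21, edgeR adjusted p = 0.109), Hspa1a (0.88 ± 0.24, edgeR adjusted p = 0.119) and Hspa8 (0.96 ± 0.26, edgeR adjusted p = 0.127) missed the adjusted threshold although their groups did not overlap. Hspd1 (0.44 ± 0.14) and Hspe1 (0.51 ± 0.18) were also not called, and Hspb1 differed by 0.14 ± 0.17.

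In this contrast edgeR called 1 of the 8 members other than Hsph1 and Dnaja1, where 0.386% of all tested genes were called. At an unadjusted p under 0.05, 7 of these 8 members were higher, against 4.94% of all genes, and 7 of these 8 had groups that did not overlap, against 5.6% of all genes. Of the 6 of them at 10 CPM or more, 5 did not overlap, against 9.95% of the genes at that level. The call depended on single lungs: 0 of the 8 were called without any 1 of room air males 1 and 5, room air female 2, hyperoxia male 3 and hyperoxia females 4 and 5. Hspa1b took the place of Dnajb1 without room air female 5. More were called without room air female 6 (3 of 8, and 1.32% of all genes), hyperoxia male 1 (5, and 0.837%) and hyperoxia male 2 (4, and 0.836%). Dnajb1 was called in 9 of 19 alternative settings, with adjusted p in edgeR or DESeq2 from 1.91e-08 to 0.325. DESeq2 called 5 of the 8 members (Hspa1a, Hspa1b, Hspa8, Dnajb1 and Hsp90aa1) and 0.664% of all genes, and edgeR with 1 RUVr factor of hidden variation called the same 5 and 4.96% of all genes.

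In hyperoxia the log2 differences between the sexes ran from -0.12 to 0.30 with a median of 0.06, 5 positive and 5 negative, and edgeR called 0 of 10 members where 0.696% of all genes were called. At an unadjusted p under 0.05, 0 of 10 differed, where 3.59% of all genes were higher at that level, and DESeq2 also called 0. Adjusting the edgeR fit for the receptor share put 2 of the 8 members other than Hsph1 and Dnaja1 higher in females at that level, Dnajb1 at 0.37 ± 0.10 (edgeR adjusted p = 0.0499, with a fold under 1.5) and Hspa8 at 0.36 ± 0.13, which without it was 0.20 ± 0.26. Dnajb1 was also under 0.05 with 1 RUVr factor, with genes of at least 10 counts in every lung and without hyperoxia male 1, and 0 of the 8 were called in any of these settings. The 95% intervals still allowed sizeable differences, for example -0.16 to 0.45 for Hsph1, -0.33 to 0.73 for Hspa8 and -0.64 to 0.40 for Hspa1a. Dnajb1 again lay higher in females without overlap, at 29.8 to 30.6 CPM against 19.3 to 28.1 CPM, an order seen in 5.78% of all genes, with a difference of 0.30 ± 0.17 that was not called (edgeR adjusted p = 1).

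Averaged over exposure, females minus males gave 0 of the 8 members other than Hsph1 and Dnaja1 called by edgeR, where 1.22% of all genes were called, and 0 by DESeq2. Of these 8, 1 had an adjusted p under 0.05 below the 1.5-fold limit, Dnajb1 with 0.52 ± 0.12 (edgeR adjusted p = 0.0129), and over all genes 1.38% had an adjusted p under 0.05. At an unadjusted p under 0.05, 6 of these 8 members were higher in females, against 4.05% of all genes.

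In females, hyperoxia lungs were lower than room air lungs for 8 of the 8 members other than Hsph1 and Dnaja1, with no overlap between the 3 lungs of each group, where 6.42% of all genes had this order. It held for 6 of the 6 at 10 CPM or more, against 15.6% of the genes at that level. The largest fitted differences were in the inducible Hsp70 genes, Hspa1a at -1.05 ± 0.24 (a 2.07-fold lower level, edgeR adjusted p = 0.176) and Hspa1b at -1.01 ± 0.25 (2.01-fold, edgeR adjusted p = 0.212). In hyperoxia females 2, 4 and 5 the summed level of the receptor genes per exon kilobase equalled 101, 108 and 118% of Hspa1a. For Hspa1b it was 115, 65.0 and 101%. Both genes were thus near background there, which limits their folds and their rank. Hsp90aa1 differed by -0.91 ± 0.21 (edgeR adjusted p = 0.177), Hspa8 by -0.83 ± 0.26 (edgeR adjusted p = 0.339) and Dnajb1 by -0.71 ± 0.16 (edgeR adjusted p = 0.176). Hspb1 (-0.55 ± 0.17), Hspe1 (-0.52 ± 0.18) and Hspd1 (-0.45 ± 0.14) differed by less, and Dnaja1 (-0.92 ± 0.21) and Hsph1 (-0.48 ± 0.15) are given with no test. The median of the 8 was -0.77, against 0.11 over all tested genes and -0.17 over those of 10 CPM or more.

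None of these differences passed the edgeR thresholds, under which 0 of the 8 members other than Hsph1 and Dnaja1 and 0.00218% of all genes (1 of 45828) were called. At an unadjusted p under 0.05, 8 of these 8 members were lower, against 5.28% of all genes lower and 7.32% higher. DESeq2 gave an adjusted p to 6 of the 8 and called 2 of these (Dnajb1 and Hsp90aa1), where it called 0.512% of the genes with an adjusted p. It gave none to Hspa1a and Hspa1b, whose unadjusted p in DESeq2 were 8.16e-06 and 5.24e-05. edgeR called Dnajb1 and Hsp90aa1 without room air female 6 (0.44% of all genes) or without hyperoxia male 2 (0.092%), and Hsp90aa1 without hyperoxia male 1 (0.0426%). With 1 RUVr factor it called 5 of the 8 (Hspa1a, Hspa1b, Hspa8, Dnajb1 and Hsp90aa1) and 4.15% of all genes. Adjusting the edgeR fit for the receptor share moved the difference to -0.37 ± 0.15 for Hspa8, -0.52 ± 0.11 for Hsp90aa1, -0.26 ± 0.13 for Hspd1 and -0.59 ± 0.11 for Dnaja1 (with no test), over 1.5 times smaller than without it. It moved to -1.36 ± 0.23 for Hspa1a and -1.29 ± 0.23 for Hspa1b, which were then called, with 0.048% of all genes. All contrasts of this kind share the 3 room air females, so the female hyperoxia contrast and the room air sex contrast are 2 views of the same high values.

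In males, 7 of the 8 members other than Hsph1 and Dnaja1 were lower in hyperoxia and 1 was higher (Hspe1), with a median of -0.125 (all genes -0.01). Hspb1 had the largest difference, -0.41 ± 0.17, with an unadjusted p of 0.0259 and an edgeR adjusted p of 1. Without room air male 1, the lung with the high skeletal muscle genes, it was -0.20 ± 0.18 (edgeR unadjusted p = 0.275), and the largest was then Dnajb1 at -0.425 ± 0.179 (edgeR unadjusted p = 0.0246, adjusted p = 1). Hsph1 differed by 0.17 ± 0.15 and Dnaja1 by 0.11 ± 0.21, given with no test. Groups did not overlap for 1 member, Hspa1b, at 4.35 to 4.66 CPM in room air and 3.7 to 4.28 CPM in hyperoxia, an order seen in 3.89% of all genes. edgeR called 0 of the 8 and 0% of all genes, 1 of the 8 had an unadjusted p under 0.05 (1.8% of all genes lower), and DESeq2 called 0. Adjusting the edgeR fit for the receptor share put 3 of the 8 lower at that level, with 0 called: Dnajb1 at -0.34 ± 0.10, Hspb1, and Hsp90aa1 at -0.23 ± 0.10 against -0.12 ± 0.21 without it. Hspa8 moved from -0.08 ± 0.26 to -0.23 ± 0.13 (edgeR unadjusted p = 0.099). This count was 2 with 1 RUVr factor or without hyperoxia male 1, and 0 without hyperoxia male 2 or 3. The 95% interval was -0.57 to 0.46 for Hspa1a and -0.61 to 0.45 for Hspa8.

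**Figure D3:**
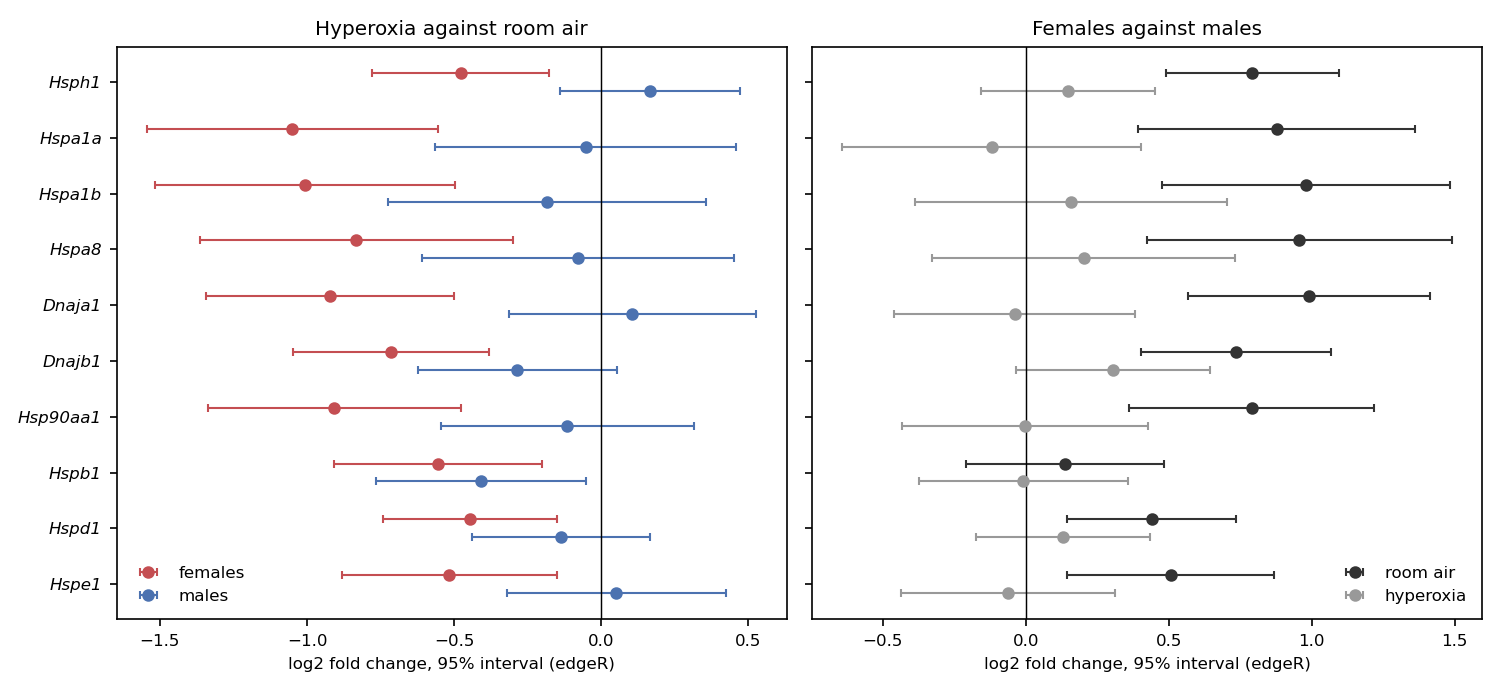
Fitted log2 fold changes of each member with 95% intervals from the edgeR model, for hyperoxia against room air in females and males (left) and for females against males in room air and hyperoxia (right). Of the 8 genes other than Hsph1 and Dnaja1, whose intervals are shown as a description, 8 have a female hyperoxia interval below 0 and 7 a male one that crosses 0. Of these 8, 7 have a room air sex interval above 0 and 8 a hyperoxia sex interval that crosses 0.

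Whether hyperoxia acted differently in the sexes was tested by the interaction. Its log2 values (female effect minus male effect) were negative for 8 of the 8 members other than Hsph1 and Dnaja1, from -0.14 ± 0.25 for Hspb1 to -0.996 ± 0.348 for Hspa1a, with a median of -0.66 against 0.12 over all genes. Hsph1 (-0.64 ± 0.21) and Dnaja1 (-1.03 ± 0.29) are given with no test. edgeR called 0 of the 8 and 0% of all genes, with adjusted p of 0.578 to 0.815, and DESeq2 called 0. At an unadjusted p under 0.05, 5 of the 8 were negative (Hspa1a, Hspa1b, Hspa8, Hsp90aa1 and Hspe1), against 2.4% of all genes. Adjusted for the receptor share in edgeR this count was 2 (Hspa1a and Hspa1b), with the interaction at -0.14 ± 0.21 for Hspa8, -0.29 ± 0.16 for Hsp90aa1 and -0.37 ± 0.25 for Hspe1. It was also 2 with genes of at least 10 counts in every lung and without hyperoxia male 1 or hyperoxia female 2. It was 3 without room air male 5, room air female 2 or 5, hyperoxia male 3 or hyperoxia female 5. It was 6 without room air male 4 or hyperoxia male 2, with 0 called in each of these settings. With 1 RUVr factor it was also 6, and 3 of the 8 were called, Hspa1a (edgeR adjusted p = 0.0153), Hspa1b (0.0495) and Hsp90aa1 (0.00095), where 4.59% of all genes were called.

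Averaged over the sexes, hyperoxia minus room air was negative for 8 of the 8 members other than Hsph1 and Dnaja1, with a median of -0.49 (all genes 0.03). Hspa1b was lowest, at -0.60 ± 0.18 (edgeR adjusted p = 0.749), followed by Hspa1a at -0.55 ± 0.17, Hsp90aa1 at -0.51 ± 0.15, Dnajb1 at -0.50 ± 0.12 (edgeR adjusted p = 0.191), Hspb1 at -0.48 ± 0.12 (edgeR adjusted p = 0.383) and Hspa8 at -0.46 ± 0.18. Hspd1 was at -0.29 ± 0.10, Hspe1 at -0.23 ± 0.13, and, with no test, Dnaja1 at -0.41 ± 0.15 and Hsph1 at -0.16 ± 0.10. Of the 8, 0 were called, where 0.0415% of all genes were called, and 7 had an unadjusted p under 0.05, against 2.52% of all genes lower. DESeq2 called 0. The 6 hyperoxia lungs lay below the 6 room air lungs for 0 of the 8 and for 0.12% of all genes.

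Levels of different genes were compared per exon kilobase (CPM of the library total, without the upper quartile scaling, divided by the length of all annotated exons of the gene, exons of rare isoforms included). The library total includes the satellite share given above. Over the 12 lungs the median level was 30.7 CPM per kilobase for Hspa8, 13.8 for Hsp90aa1, 13 for Hspb1, 9.45 for Dnajb1, 7.21 for Dnaja1, 6.51 for Hspe1, 6.33 for Hspd1, 4.39 for Hsph1, 1.60 for Hspa1b and 1.46 for Hspa1a. Hspa8 was above Hsp90aa1, Dnajb1 above Dnaja1, Hspd1 above Hsph1 and Hsph1 above Hspa1b in 12 of 12 lungs. Hsp90aa1 and Hspb1 changed places between lungs (Hsp90aa1 higher in 7 of 12), as did Hspe1 and Hspd1 (7 of 12), Dnaja1 and Hspe1 (9 of 12) and Hspa1b and Hspa1a (9 of 12).

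The 2 inducible Hsp70 genes were near the level of the receptor genes in most lungs outside room air females. The 2003 receptor genes had a median of 0.679 to 1.65 CPM per kilobase in the 12 libraries. Their summed level per kilobase equalled 78.5 to 118% of that of Hspa1a and 65.0 to 125% of that of Hspa1b in the other 9 lungs, and was at or above the gene itself in 5 and 3 of these lungs. In the 3 room air females it equalled 35.1 to 43.2% of Hspa1a and 31.6 to 34.4% of Hspa1b. Room air females had both genes above 95.9 to 99.3% of the receptor genes. In the other 9 lungs Hspa1a was above 37.2 to 74.8% of them and Hspa1b above 36.5 to 85.7%, highest in hyperoxia female 4 (2.19 CPM per kilobase, beside 2.17 in room air female 5) and next in hyperoxia male 1 (83.7%). For the other 8 members the receptor level was at most 48.2% (Hsph1) of the gene. With the summed receptor level subtracted, the room air females were above all other lungs for 8 of 10 members, Hspb1 and Hspe1 excepted. Hsph1 and Dnaja1 are included in this count. With total counts alone and no subtraction it was also 8 of 10, with Hspb1 and Hspa1b excepted, against 0.762% of all tested genes. The share of all genes with this order after subtraction was not computed.

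**Figure D4:**
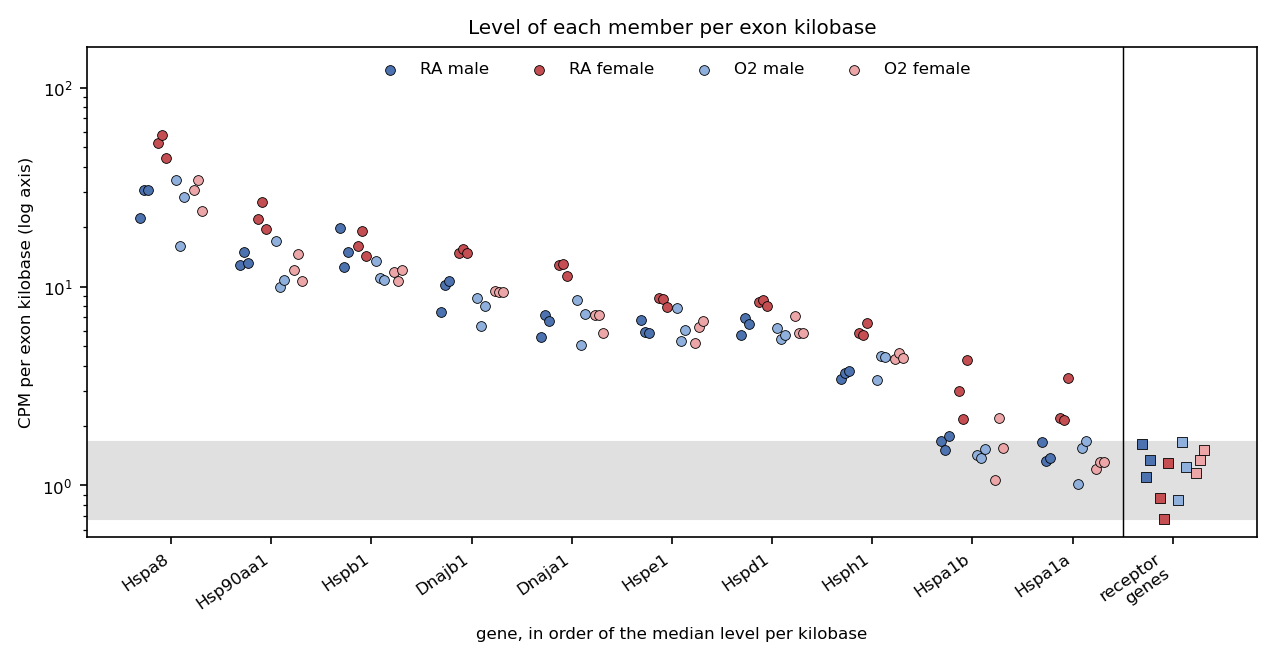
Level of each member in each lung (points, coloured by group) as CPM per exon kilobase on a log axis, in order of the median, with the median over 2003 receptor genes in each lung as squares at the right and its range as the grey band. Hspa1a and Hspa1b fall to the band in most lungs outside room air females, and the other 8 members lie above it in every lung.

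Sequence shared with other genes limits some members. Of the 50-base stretches in the Hspa1a transcripts 66.3% also occur in another gene, 58.8% in Hspa1b, and 62.3% of those of Hspa1b occur in Hspa1a, so the 2 genes are uncertain one by one. Their sum was 13.2 to 22 CPM in room air females and 6.56 to 10.2 CPM in the other 9 lungs, again without overlap. Pseudogenes and relatives hold 50.1% of the stretches of Hspb1, 47.5% of Hsp90aa1, 42.1% of Hspd1, 39.4% of Hspa8, 22.8% of Hspe1 and 20.6% of Dnaja1. Dnajb1 shares 0.412% and Hsph1 0%.

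Members were compared with each other through their log2 CPM across lungs. Over the 6 room air lungs, which fall into 2 sexes, the 45 pairs had a median Pearson r of 0.836, and Hsph1 had r = 0.955 with Dnaja1, 0.930 with Dnajb1, 0.915 with Hspa8, 0.899 with both Hspa1b and Hspd1, 0.896 with Hspa1a, 0.887 with Hsp90aa1, 0.861 with Hspe1 and 0.153 with Hspb1, given as a description since these lungs chose Hsph1 and Dnaja1. Over the 6 hyperoxia lungs the median r of the pairs was 0.331 and 15 of 45 were negative. Points share libraries, so depth and background enter every pair.

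Across the 6 hyperoxia lungs, which the choice did not use, 0 of 9 members were correlated with Hsph1 at an adjusted p under 0.05 (exact permutation test, two-sided, Benjamini-Hochberg over 9 relations), and 0 of 9 had an unadjusted exact p under 0.05. Hspa1a had r = 0.704 (exact permutation p = 0.131, adjusted 0.541) and Spearman's rho = 0.543 (exact permutation p = 0.297, adjusted 1), with r = 0.434 once the 2 lungs farthest from the median Hsph1, male 1 and female 4, were left out; 6.77% of 14604 genes had an r at least as high. Hspb1 had r = -0.808 (exact permutation p = 0.0736, adjusted 0.541) and rho = -0.371 (exact permutation p = 0.497, adjusted 1), with r = 0.249 without those lungs. Dnaja1 had r = -0.428 (exact permutation p = 0.374) and rho = 0.0286 (exact permutation p = 1), with r = 0.776 without those lungs, and Hspa8 had r = -0.185 (exact permutation p = 0.708) and rho = 0.257 (exact permutation p = 0.658), with r = 0.731 without them. The values without 2 lungs rest on very few lungs and changed with the scaling. With total counts alone, leaving out the 2 lungs farthest in that setting, r was 0.694 for Hspa1a, -0.662 for Hspb1, -0.769 for Dnaja1 and -0.92 for Hspa8. Over the 6 lungs Hspb1 then had r = -0.883 (exact permutation p = 0.00833, adjusted 0.075). With values centred on the mean of each sex, Hspa1a had r = 0.972 (exact permutation p = 0.0278, adjusted 0.25), the smallest p that the 36 orders within the sexes allow, and 0 of 9 members passed. In these 6 lungs the summed receptor level per exon kilobase equalled 78.5 to 118% of Hspa1a, and the part of this background in its r was not tested.

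**Figure D5:**
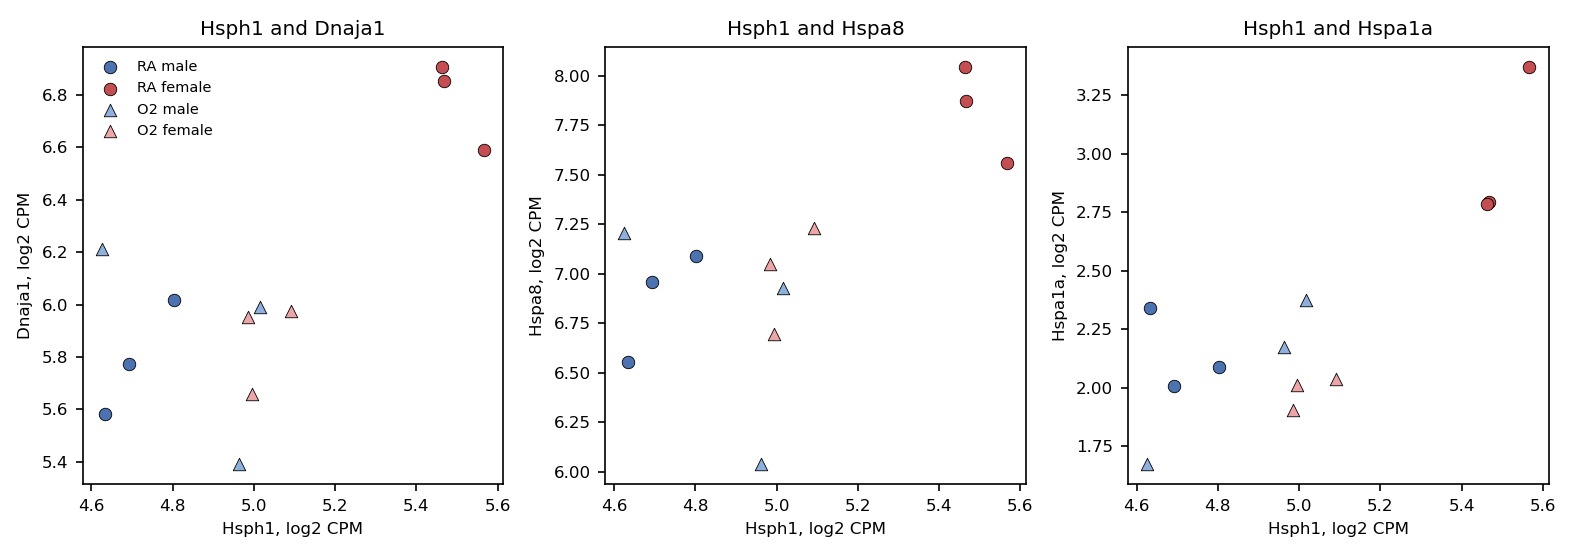
Hsph1 (x axis) against Dnaja1, Hspa8 and Hspa1a (y axes) as log2 CPM, 1 point per lung, circles for room air and triangles for hyperoxia. The room air females form a separate cluster at the upper right of each panel, and among the hyperoxia lungs the Hsph1 value does not order Dnaja1 or Hspa8.

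The level of the members also moved with the receptor share of the library. Over the 12 lungs r was -0.846 for Dnaja1, -0.838 for Hsp90aa1 and -0.837 for Hspa8, against a median of -0.673 over the 14605 genes of 10 CPM or more, and it was -0.380 for Hsph1, -0.255 for Hspa1b and -0.196 for Hspa1a, a description over lungs that share libraries. Within the 6 hyperoxia lungs r was 0.75 for Hsph1, 0.665 for Hspa1a and 0.178 for Hspa1b, and -0.899 for Dnaja1 and -0.798 for Hspb1. These are the lungs of the correlations with Hsph1 above, and the part of the receptor share in those was not tested. The mean receptor share was 0.615 ± 0.187% (SD, n = 3) in room air females, 0.852 ± 0.144% in room air males, 0.846 ± 0.100% in hyperoxia females and 0.803 ± 0.237% in hyperoxia males. With the log2 receptor share as a covariate in edgeR, the room air sex difference was 1.2 ± 0.22 for Hspa1a, 1.26 ± 0.23 for Hspa1b, 0.52 ± 0.11 for Dnajb1, 0.41 ± 0.11 for Hsp90aa1 and 0.50 ± 0.15 for Hspa8, larger than without it for the first 2 and smaller for the others. This fit called Hspa1a and Hspa1b and 0.916% of all genes, and Dnajb1 was no longer called (edgeR adjusted p = 0.00403, with a fold under 1.5). The difference stayed above 0 for 7 of the 8 members other than Hsph1 and Dnaja1 and was -0.02 ± 0.16 for Hspb1.

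Other chaperone genes were taken from lists by family (107 further genes in all, each tested once). In the female hyperoxia contrast 39 of 107 were lower (5.28% of all genes) and 0 higher at an unadjusted p under 0.05, with a median of -0.30, where the median was 0.11 over all genes and -0.17 over those of 10 CPM or more. In the room air sex contrast 24 were higher (4.94% of all genes) and 2 lower (7.75%), with a median of 0.27, where these medians were -0.10 and 0.15. edgeR called 0 of 107 in each of the contrasts, and DESeq2, which gave 99 of them an adjusted p in females, called Chordc1 and Hsp90ab1 lower in hyperoxia females and Chordc1 higher in room air females than males. In males 1 was lower (1.8% of all genes) and 1 higher (0.899%) in hyperoxia at an unadjusted p under 0.05.

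Among the other Hsp90 genes Hsp90ab1, the constitutive cytosolic form, had a log2 difference of -0.83 ± 0.26 in females with hyperoxia and 0.62 ± 0.26 between females and males in room air, and Hsp90b1, the form of the endoplasmic reticulum, -0.60 ± 0.27 and 0.43 ± 0.27. Of the other Hsp70 and Hsp110 genes 3 of 11 were lower in hyperoxia females at an unadjusted p under 0.05, with Hspa5 (BiP) at -0.69 ± 0.24 and Hspa4 at -0.48 ± 0.19. Of 30 other Hsp40 genes 7 were lower, with a median of -0.28, among them Dnajb13 at -0.34 ± 0.14. Of 22 cochaperones 9 were lower, including Chordc1, a partner of Hsp90, at -0.77 ± 0.18, which was 0.73 ± 0.18 higher in room air females than males (edgeR adjusted p = 0.0651), and Cacybp at -0.48 ± 0.16.

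Of the 8 CCT chaperonin subunits, which fold actin and tubulin, 7 were lower in hyperoxia females, with Tcp1 at -0.55 ± 0.19 and Cct3 at -0.48 ± 0.16. Of 14 chaperones and stress genes of the endoplasmic reticulum 7 were lower, with Calr at -0.62 ± 0.26 and Atf4 at -0.62 ± 0.21, and of 12 mitochondrial protein quality genes 2 were lower, with Hspa9 at -0.48 ± 0.20. The 8 other small heat shock genes were mixed, 2 lower and 0 higher, with Cryab at -0.61 ± 0.22 and Hspb7 at -0.17 ± 0.40. Of 14 further genes known as Hsf1 targets 12 were lower in hyperoxia females, with a median of -0.48, among them Serpinh1 (-0.72 ± 0.26) and Ubb (-0.69 ± 0.23), and 8 were higher in room air females than males. None of these genes was called by edgeR in either contrast; the counts in this and the preceding paragraph are at an unadjusted p under 0.05.

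Hsf1 itself was at 40.3 to 47.1 CPM in room air males, 47.0 to 55.3 CPM in room air females, 37.3 to 53.9 CPM in hyperoxia males and 43.2 to 46.6 CPM in hyperoxia females. Its groups overlapped in room air, and it differed by 0.25 ± 0.17 between the sexes there (edgeR adjusted p = 0.489) and by -0.18 ± 0.17 with hyperoxia in females. The cold-inducible Cirbp, which falls when temperature rises, was at 22.1 to 35.2 CPM in room air females and 28.1 to 37.8 CPM in room air males (-0.20 ± 0.20, edgeR adjusted p = 0.627). Rbm3, another cold-inducible RNA-binding gene, was at 36 to 43.7 CPM and 21.6 to 32.3 CPM in these groups (0.62 ± 0.18, edgeR adjusted p = 0.180), so the pair lay in opposite directions and neither was called.

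The genes whose log2 CPM was most like Hsph1 over the 12 lungs, of 14597 non-member genes of 10 CPM or more, were Sesn2 (Pearson r = 0.922), a stress-induced inhibitor of mTORC1 signalling, Arid5a (0.863), an RNA-binding immune regulator, Siah2 (0.855), a ubiquitin ligase, Gm38346 (0.845) and Crem (0.842), a cAMP-responsive transcription factor. Sesn2 kept a high r within room air lungs (0.979) and within hyperoxia lungs (0.827), whereas Arid5a fell to 0.0108 and Siah2 to 0.204 in hyperoxia. These are descriptions over lungs that share libraries, and any gene high in room air females scores well here.

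The 14 immediate early genes, which respond within minutes to growth and stress signals, summed to 762 to 1050 CPM in room air females, 350 to 540 CPM in room air males, 377 to 599 CPM in hyperoxia males and 452 to 747 CPM in hyperoxia females. In the room air sex contrast 10 of 14 were higher at an unadjusted p under 0.05 (4.94% of all genes), and 1 gene, Atf3, was called where 0.386% of all genes were (1.23 ± 0.23, edgeR adjusted p = 0.00739). Of 16 clock genes 10 were higher by the same measure and background and 0 were called, with sums of 1055 to 1523 CPM in room air females and 817 to 1017 CPM in room air males. The 8 glucocorticoid-induced genes summed to 821 to 1242 CPM and 429 to 766 CPM in these groups, with 5 of 8 higher by that measure. In hyperoxia the clock genes summed to 829 to 1264 CPM and the glucocorticoid-induced genes to 568 to 996 CPM. The part of these groups in the members' levels was not tested.

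Markers of cell types and tissues were set beside the members in the same way. All 10 lung epithelial markers had positive room air sex differences, 2 at an unadjusted p under 0.05, and summed to 11160 to 21590 CPM in room air females, 9487 to 14180 CPM in room air males, 7881 to 14550 CPM in hyperoxia males and 10090 to 10940 CPM in hyperoxia females. The 10 cardiac genes summed to 253 to 281 CPM in room air females and 135 to 294 CPM in room air males and 139 to 171 CPM in the 6 hyperoxia lungs. The 12 thymus and T cell genes summed to 126 to 139 CPM in room air females, 149 to 156 CPM in room air males, 122 to 166 CPM in hyperoxia males and 150.4 to 172 CPM in hyperoxia females, and the 8 neutrophil genes to 57.7 to 98.5 CPM, 71.5 to 75.1 CPM, 67.6 to 84 CPM and 58.1 to 92.9 CPM in the same order. The 5 red cell genes were split by exposure, with 5118 to 7881 CPM in the 6 room air lungs and 1247 to 4650 CPM in the 6 hyperoxia lungs, and edgeR called 3 of 5 lower in the contrast averaged over the sexes, where 0.0415% of all genes were called. The part of cell composition in the members' levels was not tested.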

How the data were processed

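RNA-seq was performed on 12 whole lungs, 3 in each of 4 groups of exposure and sex, with the groups taken from the labels. Per the labels, RNA was extracted with a Direct-zol kit and libraries were made with a directional kit after rRNA depletion, while the study's methods name a QIAseq stranded kit. The authors trimmed reads with Trim Galore, aligned them to mm10 (GRCm38) with STAR and deposited raw featureCounts counts per gene. Versions, annotation release, strand setting and treatment of multi-mapping reads are not given in the sources used here. Reads from overlapping genes and near-identical copies can therefore be split in ways not known.

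The deposited counts (8763033 to 16741694 per lung) were filtered with filterByExpr by group, scaled by the upper quartile and fitted with edgeR 4.0.16 (R 4.3.3) robust quasi-likelihood in a model of 4 group means, whose common biological coefficient of variation was 0.177. Genes with a Benjamini-Hochberg adjusted p under 0.05 over 45828 genes and a change over 1.5-fold were called. Log2 CPM used a prior count of 2. Errors are SD over lungs or the SE of the fit, and intervals are 95%. The replicates are separate mice, and the litter of each is not given. Correlations used exact permutation tests (SciPy 1.17.1). DESeq2 1.42.0 and RUVr were alternatives. Tested on simulated data for the contrast averaged over the sexes (45828 genes, 200 of them changed by 1 on the log2 scale), the fit recovered 199 with 6 false calls. The simulated spread followed a gene's mean level alone, without background differences between libraries, and only genes above a low level were changed. Contrasts of 3 lungs against 3 were not simulated, so this result does not give their sensitivity.

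The members and gene lists were chosen with earlier results of these data known, and the contrasts of females with males within an exposure and the count of genes highest in room air females were added after the values were seen. Named genes of other lists were those called in a contrast and the 2 with the largest change averaged over the sexes, and the genes most like Hsph1 were the 5 with the highest Pearson r. Gene positions and exon lengths came from GENCODE M21 and promoter windows from RefSeq, which held no window for Hspa8 and Hsp90aa1. No table of fold changes by the authors was used.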

Additional observations from a re-analysis of the deposited data

Results flagged for a closer look

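Over the 6 hyperoxia lungs, hyperoxia male 1 stood apart in Hsph1, with the lowest level of that exposure (24.5 CPM against 31.0 to 33.9 CPM in the other 5). On log2 CPM the gap to the nearest lung was 0.724 of the range, above Dixon's 95% critical value for 6 samples. Hyperoxia male 2, the library with the fewest counts, stood apart in Dnajb1 in the same way (19.3 CPM against 25.8 to 30.6 CPM), with a gap of 0.63 of the range of log2 CPM. The log2 level was compared in 20 groups of a gene and an exposure, and chance alone gives about 1 in 20. The rule was not applied to CPM without the log.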

How the results depend on the processing

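The members' directions held more widely than the calls. Over the alternatives run, hyperoxia minus room air in females was negative in 200 of 200 member values and averaged over the sexes in 200 of 200, the interaction in all but 2 of 200, and the room air sex difference was positive in 188 of 190. The exceptions were Hspb1, whose interaction turned to 0.0483 and whose room air sex difference to -0.0164 in the fit that adjusts for the receptor share; leaving out 1 lung, these 2 values ran from -0.353 to 0.000686 and from -0.00946 to 0.346, both turning without room air female 5. In males 129 of 190 values were negative and 61 positive. All these values come from refits of the same 12 lungs, with Hsph1 and Dnaja1 included, so they are not independent. The matching shares over all genes were not computed, and the numbers are a description of stability only.

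The number of members called depended on the setting, and the cause was not tested. The counts here are over 10 members and include Hsph1 and Dnaja1, whose calls carry no weight because room air lungs chose them. In females it was 0 with edgeR, 3 with DESeq2 (89 genes; Hspa1a and Hspa1b had no adjusted p), 3 in the fit that adjusts for the receptor share (22 genes) and 6 with RUVr (1 hidden factor), which called 1900 genes in all against 1. For the interaction RUVr gave 5 members and 2102 genes against 0 and 0. In the room air sex contrast the 3 members became 7 with RUVr (2274 genes against 177) and 7 with DESeq2 (304 genes), 5 without a filter on low counts (369 genes) and 0 with at least 10 counts in every lung (3 genes). Averaged over exposure, the sex contrast gave 0 members (559 genes), 1 with RUVr (1006 genes), 1 with the receptor adjustment (976 genes) and 2 by adjusted p alone (633 genes). Averaged over the sexes, hyperoxia gave 0 members (19 genes) and 2 with the receptor adjustment (19 genes), Hspa1a at -0.67 (edgeR adjusted p = 0.0172) and Hspa1b at -0.69 (edgeR adjusted p = 0.013).

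Leaving out 1 lung gave 0 to 7 members in the room air sex contrast (107 to 616 genes in all), Hsph1 and Dnaja1 included. In females it gave 0 to 3 on the same terms (0 to 206 genes). For the sex contrast averaged over exposure it gave 0 to 1 (476 to 687 genes), Hspa1b without room air female 5 and Hspa8 without hyperoxia male 1. For hyperoxia averaged over the sexes it gave 0 to 1 (3 to 37 genes), Hsp90aa1 without hyperoxia male 1. The replicate block could be fitted for the animal numbers of females only. It called 0 members in females (1 gene in all), averaged over the sexes (19 genes) and for the interaction (0 genes). The numbers did not pair the lungs, since lungs of the same number and sex had correlations of deviations of 0.215, -0.325 and -0.489. Hspa1b rests on 34 to 150 counts per lung, and the smallest difference detectable with 3 lungs a group was not estimated.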
